A study of Mus musculus with 16 samples.

Results

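Interferon-high LSK cells are the bone marrow stem and progenitor cells of this series that carried at least 4 molecules, counted by unique molecular identifier (UMI), of 7 interferon-induced genes in all. The 7 genes were Ifit1, Ifit3, Rsad2, Iigp1, Igtp, Ifi44 and Slfn5. Kept cells were wells not listed as empty that held at least 500 UMIs without spike-ins and had under 20% mitochondrial UMIs. Of 5157 kept cells, 100 met the rule (1.94%, 95% Wilson interval 1.60% to 2.35%), and the other 5057 kept cells served for comparison within the same library. The counts of the 7 genes therefore chose the cells, and the levels of these genes are given below as a description only.

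LSK cells (lineage-negative, Sca1-positive, Kit-positive) contain the haematopoietic stem cells of the marrow and their multipotent offspring. The hosts were CD45.1/CD45.2 mice, lethally irradiated and given a mixture of equal parts of 2 kinds of fetal liver cells, Regnase-1-/-Regnase-3-/- cells (CD45.2) and control cells (CD45.1). LSK cells were sorted into single wells 4 weeks after the transfer and read by MARS-seq, a plate method that counts the 3' ends of mRNA. The labels give the strain C57BL/6J, put all 16 libraries in 1 group and give no age. They name neither the genotype of a library or well nor the number of mice. Knockout and control cells were thus not compared, and host-derived cells, which carry both CD45 forms, are not identified either. The libraries are called LSK library 1 to 16, in the order of their records. No source says that they came from separate mice, so the p-values below refer to these libraries only. Those of the gene tests come from a fitted count model and need not follow how many libraries went up or down.

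Type I interferons act through a receptor made of Ifnar1 and Ifnar2 and the transcription factor complex ISGF3, which binds promoter elements called ISREs and induces antiviral genes such as Ifit1, Ifit3 and Rsad2. Interferon gamma acts through Ifngr1 and Ifngr2 and induces, through promoter elements called GAS, the GTPases of cell-autonomous immunity, among them Iigp1 and Igtp. Both pathways overlap in their targets. In the marrow, interferons are known to bring quiescent stem cells into cycle and to raise Sca-1, the protein of Ly6a, which is also a marker of the LSK gate. Regnase-1, encoded by Zc3h12a, and Regnase-3, encoded by Zc3h12c, are RNases of immune mRNAs.

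The promoters of the 7 genes show which of the 2 pathways' letters lie before their starts. RefSeq promoters of build GRCm38.p6 (250 bases before to 50 after a start) were searched on both strands for the ISRE-type letters GAAANNGAAA, which read TTTCNNTTTC on the other strand, and for the GAS-type letters TTCNNNGAA. Of the 7 genes, 6 were matched in the promoter table, 5 of these held ISRE-type letters and 1, Igtp, held GAS-type letters as well. The 30-base windows below stand for both kinds and are written 5′ to 3′ along the gene's strand, with the match in capitals; for Igtp the ISRE-type window comes before the GAS-type one, and the 2 windows overlap.
Ifit1: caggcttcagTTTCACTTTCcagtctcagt
Ifit3: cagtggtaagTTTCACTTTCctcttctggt
Rsad2: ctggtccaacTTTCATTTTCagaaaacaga
Igtp: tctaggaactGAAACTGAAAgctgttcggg
Igtp: aactagccatTTCTAGGAActgaaactgaa
Gbp7: tccgttttctTTCCAGGAAaagcagaagct
Serpina3f: tcagttctatTTCCTAGAAatcacccattt
Serpina3g: taagttatagTTCCCAGAAatcacccggtc

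These windows lie at chr19:34640775-34640804 for Ifit1 and chr19:34583363-34583392 for Ifit3, both on the plus strand, and at chr12:26456553-26456582 on the minus strand for Rsad2. The Igtp windows lie at chr11:58199512-58199541 and chr11:58199501-58199530, the Gbp7 window at chr3:142530220-142530249, and those of Serpina3f and Serpina3g at chr12:104214413-104214442 and chr12:104236104-104236133, all on the plus strand. Gbp7, Serpina3f and Serpina3g are shown because they were called higher in the interferon-high cells, as given below. The Gbp7 promoter held 2 GAS-type matches, of which 1 is printed, and 1 ISRE-type match, which is not printed. ISRE-type letters were found in 3.44% and GAS-type letters in 8.3% of all 32851 promoters of the same length. A match describes letters in this window and is not a shown binding site.

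Before any result, 2 sets of libraries must be told apart. LSK libraries 1 to 8 held the tubulin regulator Stmn1 at 722 to 921 UMIs per 1000000 UMIs (CPM), and libraries 9 to 16 at 25.7 to 68.9 CPM. The processed pseudogene entries Gm14094 and Gm8420 ran the other way, at 3.87 to 18 CPM in libraries 1 to 8 and at 319 to 666 CPM in libraries 9 to 16. The labels give no reason for this split, and each main result is also given within each set. Sequencing batches followed it in large part. The well table lists libraries 2 to 10 under batch SB341 and 11 to 16 under SB343, and has no entry for library 1. All libraries of SB343 thus lie in the set poor in Stmn1, and results within batches and within these sets are not separate checks. Libraries held 521435 to 822534 UMIs and 295 to 345 kept cells.

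Interferon-high cells occurred in every library. Their number ran from 1 to 10 with a median of 7, and their share of kept cells from 0.339% in library 16 to 3.03% in library 3, with a median of 2.15% (SD 0.791, n = 16). Libraries 2 and 16, at 0.612% and 0.339%, were the lowest, and libraries 3, 12 and 1 the highest. The shares of the 9 libraries of batch SB341 ran from 0.612% to 3.03% (median 2.22%) and those of the 6 libraries of SB343 from 0.339% to 2.90% (median 1.48%). In the 8 libraries rich in Stmn1 the median was 2.34% (0.612% to 3.03%), and in the other 8 it was 1.48% (0.339% to 2.90%). Both ranges overlap nearly throughout, and no test was made because the sets were defined from the data. The Wilson intervals of single libraries are wide, as the plot of shares by library shows, and cover counting error only.

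**Figure D1:**
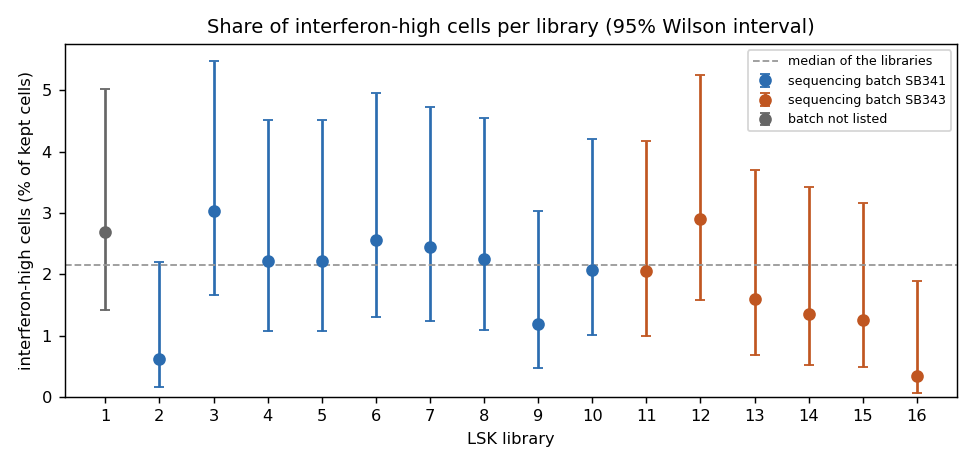
Share of interferon-high cells among kept cells (%, y axis) in each LSK library (x axis), with 95% Wilson intervals as bars, the sequencing batch in colour and the median of 2.15% as a dashed line. Libraries 2 and 16 lie lowest, and the intervals of most libraries include the median.

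A count threshold selects deeper cells. Interferon-high cells held a median of 2617 UMIs (612 to 15032) and the other kept cells a median of 1549. Among cells with 500 to 1000 UMIs, 0.987% were interferon-high (Wilson interval 0.578% to 1.68%), and among those with at least 4000 UMIs 5.65% were (3.91% to 8.09%). When every cell was thinned to 500 UMIs and 2 UMIs of the 7 genes were required, 84 cells met the rule, and 33 of them were among the 100. For this reason the gene comparisons below are also given against other cells of the same depth. Empty wells, 60 by the well table, had a summed total of 801 UMIs and 0 of the 7 genes.

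Of the 7 genes, the GTPases Iigp1 and Igtp were detected most often. Iigp1, an immunity-related GTPase of the vacuole of intracellular pathogens, had 195 UMIs in 61 of the 100 cells, and Igtp, a GTPase of the same family, had 184 UMIs in 63. Ifi44 had 99 UMIs in 43 cells. Ifit1, whose protein binds foreign RNA, had 86 UMIs in 29 cells, and Rsad2, which encodes the antiviral enzyme viperin, had 64 UMIs in 23. Slfn5 had 25 UMIs in 12 cells and Ifit3 6 UMIs in 2 cells. Among the other kept cells, 8.48% held an Igtp UMI, 5.79% an Iigp1 UMI and 5.0% an Ifi44 UMI, against 2.0% for Ifit1 and 1.46% for Rsad2. Low counts of the 7 genes were thus spread over many cells, and the interferon-high cells held 659 of all 2144 UMIs of these genes (30.7%).

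Over the 14 libraries with at least 3 interferon-high cells, the level of Iigp1 in these cells had a lowest value of 225, a median of 528 and a highest of 1603 CPM, and in the other cells 16.3, 31.8 and 55.8 CPM. Igtp stood at 192, 619 and 1233 CPM and in the other cells at 29.0, 53.1 and 70.2 CPM. Neither GTPase overlapped between the 2 kinds of sum in these libraries, which the choice of cells makes so. Ifit1 had a lowest value of 0, a median of 166 and a highest of 747 CPM, with 2 libraries at 0, and the other cells 5.30, 11.2 and 21.8 CPM. Rsad2 had 0, 113 and 1069 CPM against 1.54, 8.57 and 20.1 CPM, and 1 library was at 0. The highest Rsad2 value fell in a library with 1 very strong cell, described below.

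Counts just inside and just outside the threshold differed little. Of all kept cells, 3970 had no UMI of the 7 genes, 783 had 1, 210 had 2 and 94 had 3, just below the threshold. Just above it, 41 cells had 4 UMIs and 20 had 5, followed by 29 cells with 6 to 9 and 10 cells with 10 or more. The pooled level of the 7 genes was 1219 CPM in the cells with 3 UMIs and 1430 CPM in those with 4.

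The 100 cells differed in which of the 7 genes they carried, and were parted by these UMIs alone. Cells with more UMIs of Iigp1 and Igtp than of the other 5 genes are called GTPase-leaning (57 cells), those with fewer Ifit-leaning (37 cells), and 6 cells were tied. The name Ifit-leaning stands for all 5 genes: of these 37 cells, 27 held Ifi44, 21 Ifit1 and 2 Ifit3. With a median of 5 UMIs of the 7 genes per cell, the parting of single cells is uncertain. Both kinds of gene were seen in 45 cells, GTPase genes alone in 36 and the other 5 genes alone in 19. Iigp1 and Igtp shared 43 cells, whereas Ifit1 and Rsad2 shared 9 and Ifit1 and Ifi44 shared 16. Most cells showed few of the 7 genes: 19 showed exactly 1, 48 showed 2, 21 showed 3 and 12 showed 4 or more. GTPase-leaning cells occurred in all 16 libraries and Ifit-leaning cells in 12. In the 8 libraries rich in Stmn1 there were 28 GTPase-leaning and 26 Ifit-leaning cells, and in the other 8 there were 29 and 11. That split was not tested.

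**Figure D2:**
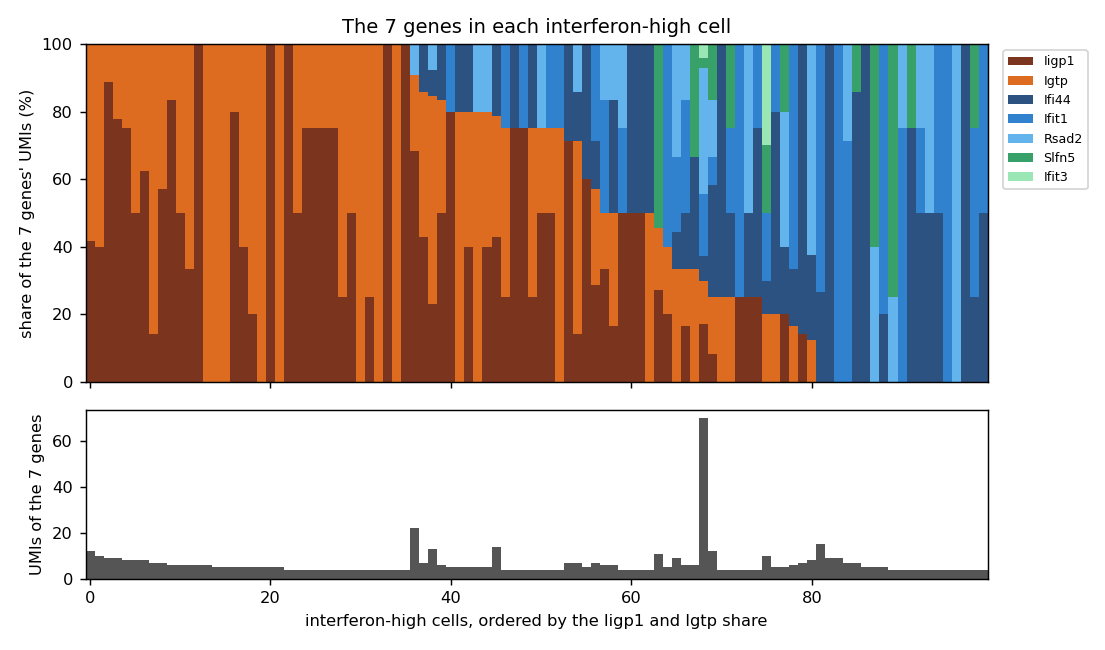
Top, the share of each of the 7 genes among their UMIs (%, y axis) in each of the 100 interferon-high cells (x axis), ordered by the share of Iigp1 and Igtp; bottom, the number of UMIs of the 7 genes in the same cells. The left 36 cells held Iigp1 and Igtp alone, the right 19 held only the other 5 genes, and 1 cell reached 70 UMIs.

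Over all 5157 kept cells, GTPase UMIs were more frequent in cells with a UMI of the other 5 genes. A GTPase UMI was present in 125 of 550 such cells (22.7%) and in 637 of 4607 cells without one (13.8%). After thinning to 500 UMIs the shares were 28 of 221 (12.7%) and 252 of 4936 (5.11%). These shares describe cells pooled over the libraries and were not tested.

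A single cell of library 1 stood far above the rest, with 70 UMIs of the 7 genes among 5047 UMIs. It held 26 UMIs of Rsad2, 13 of Ifit1, 12 of Iigp1, 9 of Igtp, 5 of Ifi44, 3 of Ifit3 and 2 of Slfn5, and was the only cell with all 7 genes. It also held 62 UMIs of B2m, 27 of Ifitm3, 20 of Serpina3g and 8 each of Irf7, Irgm1 and Isg20. The next cells had 22 UMIs of the 7 genes (library 1, of which 15 were Iigp1), 15 (library 4, of which 11 were Ifit1 and none a GTPase) and 14 (library 5). Its 41 UMIs of the stem cell list included the 27 of Ifitm3 and 11 of Ifitm1, which are also on the ISGF3-type list.

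Genes that the rule did not use were compared between the summed UMIs of interferon-high and other cells of the same library. In 14 libraries, each with at least 3 interferon-high cells, 8951 genes with at least 100 UMIs were tested by edgeR's quasi-likelihood test with the library as a block and Benjamini-Hochberg adjustment at 0.05. Of these genes 35 were higher (0.391% of the genes tested) and 2 were lower (0.0223%), and 649 had an unadjusted p under 0.05. On simulated counts this test missed falls more often than rises, so the 2 counts are not equally complete. Of the 35 higher genes, 23 belonged to 2 lists of interferon targets: 12 of 58 tested genes of the ISGF3-type list and 11 of 17 of a list of interferon-gamma GTPases and targets. The median log2 fold change was 0.81 in the first list and 1.58 in the second, against 0.02 over all genes tested, with 57 of 58 and 17 of 17 genes above 0. Since interferon genes chose the cells, genes that vary with them across cells differ by that choice, and the counts describe how far the program extended.

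Against depth-matched other cells, 24 genes were higher (0.268%) and 2 lower (0.0223%). Of the 37 calls 21 remained in the same direction, 18 of them in the interferon lists, and 5 interferon-list calls were lost, those of Usp18, Mndal, Gbp3, Bst2 and Ly6e (adjusted p = 0.507, 0.305, 0.0658, 0.320 and 0.260). Genes called there and not against all other cells included Ifitm1 (0.78 ± 0.18, adjusted p = 0.00873) and Car2 (0.74 ± 0.16, adjusted p = 0.00157), both higher, and the histone gene Hist1h2ao, which was lower (-0.72 ± 0.11, adjusted p = 7.67e-08). Interferon-high sums held only 10333 to 40370 UMIs, so that 1 UMI was worth 24.8 to 96.8 CPM in a single library. The 7 libraries rich in Stmn1 alone gave 14 calls (14 higher) and the 7 others alone 19 (18 higher, 1 lower), and 37 and 36 of the 37 genes kept their direction there.

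Serpin and GTPase genes led the second list. Serpina3g, a cathepsin inhibitor induced by interferon gamma, had a lowest value of 32.1, a median of 617 and a highest of 2032 CPM in interferon-high cells and 136, 222 and 372 CPM in the others. It was higher in 12 of 14 libraries (log2 fold change 1.69 ± 0.17 SE, adjusted p = 1.30e-19), and 51 of the 100 cells carried it. Within batch SB341 alone it missed the threshold (0.99). Its neighbour Serpina3f stood at 0, 151 and 791 CPM against 4.28, 16.2 and 35.0 CPM, a difference of 3.38 ± 0.38 (adjusted p = 6.97e-15), higher in 12 of 14 libraries. It was the only 1 of the 37 genes called in all alternatives that were run. No source used here says how reads shared by these close relatives were counted.

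Gm12250, the gene of the immunity-related GTPase Irgb10, rose by 2.65 ± 0.35 (adjusted p = 1.75e-10), from a median of 33.7 to 184 CPM, and was higher in 13 of 14 libraries. In thinned cells it was not called (adjusted p = 0.359). Gm4951, of the same GTPase family, rose by 2.76 ± 0.39 (adjusted p = 3.32e-09), from 21.7 to 101 CPM at the median. Ifi47 was higher in all 14 libraries: 218, 420 and 799 CPM against 151, 183 and 252 CPM (1.36 ± 0.20, adjusted p = 8.26e-09). It was carried by 60 of the 100 cells. Irgm1, a regulator of these GTPases, stood at 52.3, 262 and 534 CPM against 55.7, 82.7 and 113 CPM (1.64 ± 0.28, adjusted p = 3.93e-06), higher in 12 of 14 libraries. The guanylate-binding protein gene Gbp7 stood at 0, 305 and 569 CPM against 64.2, 94.0 and 118 CPM (1.63 ± 0.26, adjusted p = 7.84e-07). Apart from Serpina3f, each of these genes lost its call in at least 1 batch or Stmn1 set alone, with the fold change still above 0. The overlap of Ifi47 and Gm12188, and of other neighbours on 1 or both strands, leaves single assignments uncertain because the strand setting of the counting is not given.

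The remaining members of that list were called more weakly. Gbp2 rose by 1.58 ± 0.34 (adjusted p = 0.00196), and the call ended without library 3 or library 10 (adjusted p = 0.0533 to 0.186). Tgtp1, another GTPase, rose by 1.98 ± 0.43 (adjusted p = 0.00196), and the call ended without library 7 (adjusted p = 0.0811). Irgm2, which overlaps Igtp on the same strand and may share its reads, rose by 1.59 ± 0.40 (adjusted p = 0.0204), a call that ended without any 1 of libraries 1, 7, 9, 10, 12 and 14 (adjusted p = 0.0515 to 0.144). Gbp3 rose by 1.16 ± 0.30 (adjusted p = 0.0357), a call that ended without any 1 of libraries 1, 3, 6, 10, 11, 12, 13 and 15 (adjusted p = 0.0811 to 0.187) and against depth-matched cells (0.0658). The 6 genes of the list that were tested and not called all had fold changes above 0.

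**Figure D3:**
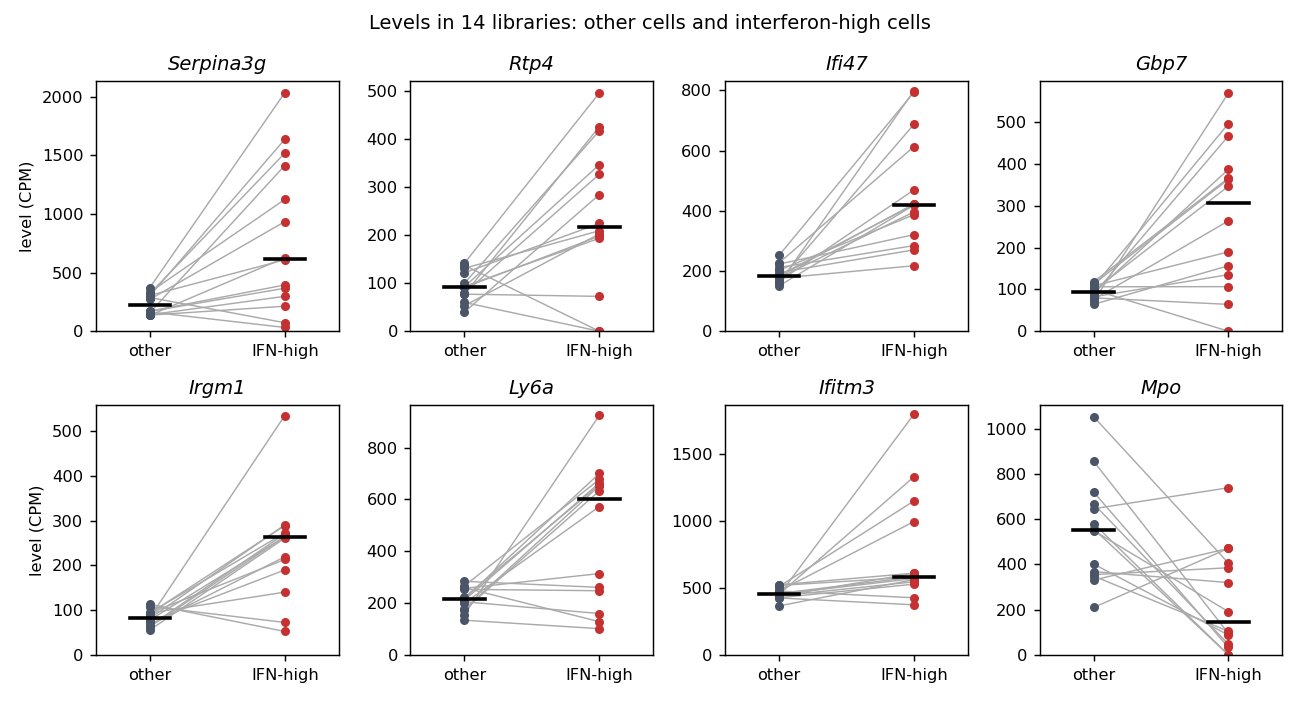
Level (CPM, y axis) of 8 called genes in the summed other cells (grey) and interferon-high cells (red) of 14 LSK libraries, with lines joining sums of the same library and black bars at the medians. Ifi47 was higher in all 14 libraries, Serpina3g, Gbp7, Irgm1 and Ifitm3 in 12, Rtp4 in 11, Ly6a in 9, and Mpo was lower in 10.

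In the ISGF3-type list, the regulatory gene Irf7 was among the calls. Irf7, the transcription factor that amplifies type I interferon production, rose by 2.22 ± 0.40 (adjusted p = 2.11e-05), from a median of 25.9 to 100 CPM, and was higher in 11 of 14 libraries. It was listed at 0 in the interferon-high cells of 3 libraries. Zbp1, a sensor of nucleic acids that triggers cell death, had 22 UMIs in 11 of the 100 cells (2.28 ± 0.44, adjusted p = 1.34e-04). It was higher in 7 of 14 libraries and at 0 in the 7 others. Rtp4 rose by 1.45 ± 0.28 (adjusted p = 1.08e-04), from 91.8 to 217 CPM at the median. None of Irf7, Zbp1 and Rtp4 was called within batch SB341 or SB343 alone. In thinned cells all of them lost the call (adjusted p = 0.664, 0.732 and 0.266). Irf7 and Rtp4 also lost it in the libraries poor in Stmn1, and Zbp1 in those rich in Stmn1. Within each batch and each Stmn1 set their fold changes stayed above 0.

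Antiviral effectors were raised to different degrees. Ifitm3, which blocks virus entry, stood at 374, 580 and 1794 CPM against 365, 452 and 523 CPM (0.75 ± 0.14, adjusted p = 1.08e-04), higher in 12 of 14 libraries, and 75 of the 100 cells carried it. Its call was lost within SB341, within SB343, in thinned cells (adjusted p = 0.590) and at a threshold of 6 UMIs. The same held in the libraries poor in Stmn1 and with TMM factors over all tested genes. Oasl2 rose by 1.41 ± 0.34 (adjusted p = 0.0153), but the call ended without library 1 or 4 (adjusted p = 0.112 to 0.145). Usp18, which removes the ubiquitin-like Isg15 and damps type I signalling, rose by 1.86 ± 0.47 (adjusted p = 0.0220). It was not called against depth-matched cells (adjusted p = 0.507), nor without any 1 of libraries 1, 3, 5, 7 and 12 (0.0748 to 0.132). Cmpk2, the neighbour of Rsad2, rose by 1.67 ± 0.44 (adjusted p = 0.0427), a call that ended without any 1 of libraries 1, 3, 4, 6, 9, 10, 12 and 13 (adjusted p = 0.0530 to 0.378). Bst2, the gene of tetherin, rose by 1.05 ± 0.28 (adjusted p = 0.0418), a call that ended without any 1 of libraries 1, 3, 4, 7, 8, 10, 13 and 14 (adjusted p = 0.0600 to 0.255).

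The DNA sensor genes Ifi203 and Mndal overlap on the same strand, so their UMIs cannot be told apart. Ifi203 rose by 0.88 ± 0.20 (adjusted p = 0.00396), and the call ended without library 1, 3 or 5 (adjusted p = 0.0803 to 0.0940). Mndal rose by 0.79 ± 0.20 (adjusted p = 0.0291), a call that ended without any 1 of libraries 1, 3, 4, 6, 10 and 11 (adjusted p = 0.0724 to 0.200). Ly6e rose by 0.38 ± 0.10 (adjusted p = 0.0444), a call that ended without any 1 of 11 of the 14 libraries, all but 8, 14 and 15 (adjusted p = 0.0600 to 0.262), and its sign turned (-0.33) when normalization factors were taken over all tested genes. Abundant list members that missed the threshold were Ifitm1 (0.48 ± 0.16, adjusted p = 0.223; called against depth-matched cells, as above), Ifitm2 (0.16 ± 0.21) and Lgals9 (-0.20 ± 0.20). The strongest cell bore on this list: without it 6 of the 58 genes were called instead of 12, and the calls of Oasl2, Usp18, Cmpk2, Bst2, Mndal and Ly6e were among those lost (adjusted p = 0.0667 to 0.157). In the second list 10 of the 11 genes were called without it, and Gbp3 was lost (adjusted p = 0.122).

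Interferon-related promoter letters were frequent among the called genes. Of the 35 higher genes 24 were matched in the promoter table, and 12 of these held ISRE-type and 8 held GAS-type letters. Over the 6333 matched genes of all tested the shares were 3.98% and 8.24%. Among the 10 matched genes of the interferon-gamma list 7 held ISRE-type and 6 held GAS-type letters, and among the 7 matched genes of the ISGF3-type list 4 and 2 did. Serpina3f and Serpina3g, printed above, held GAS-type letters and no ISRE-type letters in this window. Irf7, Ifi47, Oasl2 and Cmpk2 held neither.

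Interferon genes could not be tested, and no receptor gene passed the test. The 8 interferon genes on the list, among them Ifnb1, Ifna4 and Ifng, had 0 UMIs in the interferon-high cells, which allows up to 9.29 CPM, and 0 in all kept cells, which allows up to 0.287 CPM. Of 7 tested receptor and kinase genes none was called, with a median of 0.64 and 6 of 7 above 0. Ifngr2, the signalling chain of the interferon gamma receptor, had 1.06 ± 0.47 (adjusted p = 0.539). Ifngr1 had 0.67 ± 0.44, Ifnar2 0.64 ± 0.43 and Jak1 0.46 ± 0.26 (adjusted p = 0.806, 0.806 and 0.758). Ifnar1 had -0.12 ± 0.65, on 6 UMI-bearing cells. The interferon-induced transcription factor Irf1 had 1.00 ± 0.35 and missed the threshold (adjusted p = 0.268).

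Of the antigen presentation genes, B2m and Ifi30 were called. In the list of MHC class I and peptide loading genes 1 of 20 was called, with a median of 0.32 and 18 of 20 above 0. This gene was B2m, the class I light chain, at 3649, 5519 and 6794 CPM against 4290, 4696 and 5197 CPM (0.26 ± 0.06, adjusted p = 0.00421), higher in 11 of 14 libraries. Its call ended without library 1, 4, 5 or 7 (adjusted p = 0.0562 to 0.0873), and its sign turned (-0.46) with normalization factors over all tested genes. H2-K1 had 0.27 ± 0.10 (adjusted p = 0.311) and H2-D1 0.22 ± 0.12 (0.756). None of 6 MHC class II genes was called, all above 0 with a median of 0.62, and their leading member Cd74 had 1.06 ± 0.33 (adjusted p = 0.140). Ifi30, a thiol reductase of antigen processing, was called (2.15 ± 0.48, adjusted p = 0.00385) on 18 UMIs in 5 of the 100 cells. It was higher in 5 of 14 libraries and at 0 in the 9 others. It was not called against depth-matched cells (adjusted p = 0.474) or without library 7 or 11 (0.352 to 0.362).

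The LSK identity of the interferon-high cells was checked against 7 marker genes. Kit was detected in 33 of the 100 cells and in 25.4% of the others, and its level did not pass the test (0.03 ± 0.27). Cd34 was detected in 65 cells and in 53.2% of the others (-0.08 ± 0.15). Ly6a was the only 1 of the 7 that was called (1.13 ± 0.20, adjusted p = 9.28e-06), at 101, 603 and 925 CPM against 134, 215 and 284 CPM. It was detected in 56 cells and in 26.2% of the others, higher in 9 of 14 libraries and lower in 5. The Ly6a call was lost in thinned cells (adjusted p = 0.668), within batch SB341 and at a threshold of 6 UMIs. It was also lost with TMM factors over all tested genes. In the libraries rich in Stmn1 alone its fold change was 0.51 and not called, and in the others it was 1.71; whether these differ was not tested.

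Among the blood lineages, the granule genes Mpo and Prtn3 were lower. In the neutrophil and monocyte list 2 of 15 tested genes fell and none rose, with a median of -0.40, 11 of 15 below 0, and the summed list lower in 12 of 14 libraries. Mpo, the granule enzyme myeloperoxidase, stood at 0, 148 and 739 CPM in interferon-high cells and 210, 553 and 1053 CPM in the others. It fell by 0.92 ± 0.19 (adjusted p = 5.47e-04) and was lower in 10 of 14 libraries, although 1 cell held 42 of its 133 UMIs. Prtn3, the granule protease proteinase 3, fell by 1.00 ± 0.26 (adjusted p = 0.0331) and was lower in 13 of 14 libraries. The Prtn3 call ended without any 1 of libraries 1, 6, 7, 8, 10, 12 and 14 (adjusted p = 0.0577 to 0.126), and against depth-matched cells (adjusted p = 0.0571). The Mpo call depended on the libraries: its fold change was -0.20 in those rich in Stmn1 (adjusted p = 0.999) and -1.83 in the others. Mpo was also not called with at least 1 or at least 5 interferon-high cells per library (-0.34 and -0.67), with a threshold of 3 UMIs (-0.27), or without the library block (-0.97, adjusted p = 0.189).

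Stem cell, lymphoid and erythroid lists showed few calls. In the stem cell list 1 of 17 genes was called, Ifitm3, which is also on the ISGF3-type list, with a median of 0.11. Against depth-matched cells Ifitm1, on both lists as well, was a second call. Adgrg1 had -0.33 ± 0.14 (adjusted p = 0.524) and Angpt1 -0.06 ± 0.26. In the lymphoid list 0 of 12 genes were called (median 0.19), and Dntt had 0.28 ± 0.18. In the megakaryocyte and erythroid list 1 of 13 was called: Klf1, an erythroid transcription factor, had 2.19 ± 0.53 (adjusted p = 0.0145) on 19 UMIs in 4 cells, 14 of them in 1 cell. Klf1 was higher in 4 and lower in 8 of 14 libraries. Its call ended without library 8, 11 or 15 (adjusted p = 0.0681 to 0.804; fold change down to 1.27) and against depth-matched cells (adjusted p = 0.444), where Car2 was called (the difference between the comparisons was not tested). The haemoglobin gene Hba-a1 was called (2.94 ± 0.66, adjusted p = 0.00421) on 25 UMIs, of which 23 lay in 1 cell. It was higher in only 2 of 14 libraries and lower in 6. Its fold change ran from 0.40 to 4.17 when single libraries were left out. The call was lost without library 8 or 11 and against depth-matched cells (adjusted p = 0.0527).

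Besides Ifi30, 7 calls lay outside all lists. The entries Gm42418 (0.24 ± 0.04, adjusted p = 6.50e-09) and Gm26917 (0.15 ± 0.04, adjusted p = 0.0444) were not called against depth-matched cells (adjusted p = 0.142 and 0.972). Gm42418 was very abundant, with medians of 34837 CPM in interferon-high and 29781 CPM in other cells. It was higher in 9 and lower in 5 of 14 libraries, and the DESeq2 Wald test did not call it (adjusted p = 0.594). It overlaps the entries CT010467.1 and AY036118 on the other strand, so the RNA that it counts is uncertain. Gm26917 was also not called without any 1 of 10 libraries, those numbered 1, 3, 4, 5, 6, 7, 9, 10, 11 and 12 (adjusted p = 0.0673 to 0.669). Gm8995 (0.94 ± 0.22), Gm4070 (1.96 ± 0.46), Ociad1 (1.90 ± 0.46), Fam102a (1.82 ± 0.46) and Stk11 (1.41 ± 0.37) lost their calls against depth-matched cells (adjusted p = 0.0545 to 0.576) and without any 1 of 3 to 7 libraries each. The libraries were 1, 3, 7 and 10 for Gm8995, 6, 10 and 12 for Gm4070, 3, 5, 6 and 15 for Ociad1, 3, 4, 10, 12 and 14 for Fam102a, and 7, 8, 10, 11, 12, 13 and 14 for Stk11.

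Defining markers of other cell types were mostly at 0, and some shared ones were not. In the interferon-high cells the plasmacytoid dendritic cell markers Siglech, Klk1 and Spib had 0 UMIs, as did Itgax, Xcr1 and Cd209a of conventional dendritic cells, and S100a8, S100a9, Retnlg, Lcn2, Camp, Adgre1 and C1qa of mature neutrophils and macrophages. Cd79a, Ms4a1, Ebf1 and Pax5 of B cells and Cd3e, Cd3d, Klrb1c and Gzma of T and NK cells also had 0, as did Alas2 and all 5 endothelial and stromal markers. Each 0 allows up to 9.29 CPM in the pooled cells, and all 28 markers at 0 lay under that limit in the other cells too, so that these zeros show no difference. Hbb-bt had a pooled level of 217 against 149 CPM, H2-Aa 204 against 106, Cd74 195 against 83.7 and Lyz2 164 against 179 CPM, none of them called. The summed conventional dendritic cell list, which holds class II genes, ran from 194 to 2344 CPM (median 677) against 264 to 865 CPM (median 458) and was higher in 10 of 14 libraries. The summed plasmacytoid list ran from 0 to 725 CPM against 177 to 322 CPM, and its 1 call was Bst2. The summed erythroid list ran from 0 to 2095 CPM against 106 to 388 CPM, and its 1 call was Hba-a1. The summed mature neutrophil and macrophage list ran from 0 to 366 against 152 to 259 CPM, the B cell list from 0 to 261 against 24.3 to 59.9 CPM, and the T and NK list from 0 to 261 against 99.5 to 207 CPM. The part of other cell types in the results was not tested.

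Over all interferon-high cells, the cell cycle lists gave no call and were balanced in direction. Among G1 to S phase genes 0 of 24 were called, 12 above and 12 below 0 (median 0.04), and Pcna had -0.08 ± 0.17. Among G2 to M phase genes 0 of 24 were called, again 12 above and 12 below 0 (median 0.00), and Mki67 had 0.38 ± 0.20. In the comparison of the 2 kinds of cell given below, cycle genes were higher in GTPase-leaning cells but not called. Mki67 had 1.44 ± 0.50, Mcm6 1.09 ± 0.49 and Top2a 0.87 ± 0.40 (adjusted p = 0.483, 0.782 and 0.830). Pcna, Dut, Rrm1, Hmgb2 and Ube2c also had values above 0 there. The quiescence list had 0 calls among 7 genes, the list of cell death genes 0 among 12, the NF-kB feedback list 0 among 12 (median 0.06), and the p53 target list 0 among 4, all below 0 (median -0.72).

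The Regnase genes and their targets gave no call. Zc3h12a was found in 4 and Zc3h12c in 2 of the 100 cells, too few for a test, and both were listed at 0 at the median over libraries. In the list of Regnase target mRNAs 0 of 11 tested genes were called (median 0.23), and Nfkbiz had 0.23 ± 0.63. Il6, Tnf, Cxcl1, Ptgs2 and Ctla4 were among 11 targets with 0 UMIs in the interferon-high cells. Heat shock chaperones (0 of 9), the constitutive proteasome (0 of 14), immediate early genes (0 of 5) and glycolysis genes (0 of 12, median -0.23) had no call either.

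The interferon lists rose by degrees below the threshold too. Pooled over cells without a UMI of the 7 genes, the 72 genes of the ISGF3-type list summed to 5436 CPM, and in cells with 1, 2 and 3 UMIs to 5757, 6732 and 7393 CPM. In cells with 4, 5, 6 to 9 and 10 or more UMIs the sum was 6925, 6777, 8933 and 17921 CPM. The 33 genes of the interferon-gamma list summed to 1171, 1345, 1680 and 2326 CPM below the threshold and to 2364, 2536, 4041 and 8359 CPM above it. Cells with 3 and with 4 UMIs were thus nearly alike in both lists, and the large step lay at the 10 cells with 10 or more. In the ISGF3-type list much of that class came from the strongest cell, with 264 UMIs. Of the interferon-gamma list that cell held 68 UMIs. The next 4 cells held 42 to 104 and 2 to 53 UMIs of these lists. The size of the step without the strongest cell was not computed. None of the 7 genes is in these sums, the points share all libraries, and the median depth rose from 1464 UMIs in cells without a UMI to 3317 in the top class.

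**Figure D4:**
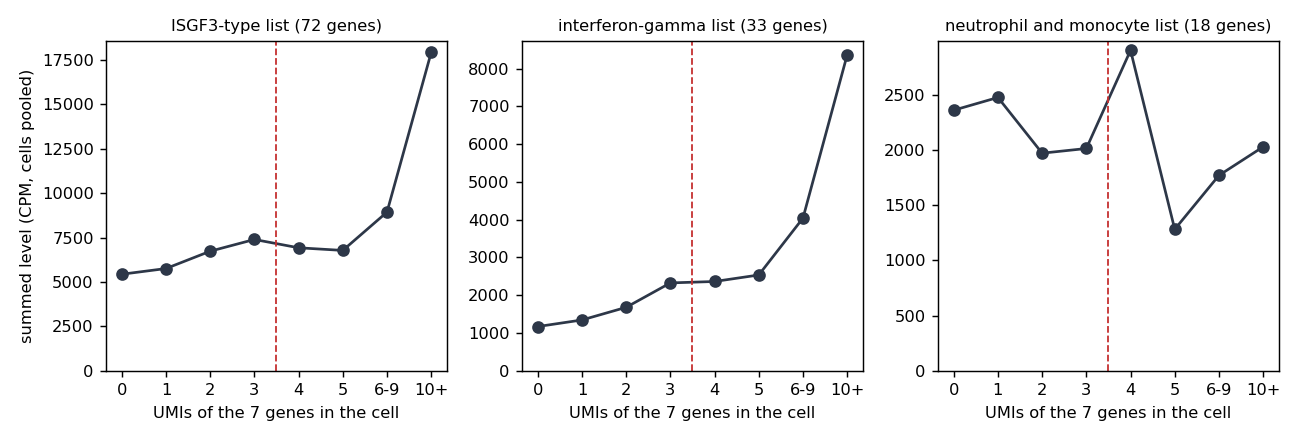
Summed level (CPM, y axis) of 3 gene lists, without the 7 genes, in kept cells pooled by the number of UMIs of the 7 genes (x axis); the dashed line marks the threshold. Both interferon lists rose from the lowest to the highest class, to 17921 and 8359 CPM, and the neutrophil and monocyte list showed no steady course. In the highest class 1 cell alone held 264 UMIs of the ISGF3-type list.

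Both kinds of cell were then compared with each other, on genes that did not define them. In 11 libraries with at least 2 cells of each kind, 1334 genes were tested, 2 were higher in GTPase-leaning cells (0.15%) and 0 were lower (0.0%), and 67 had an unadjusted p under 0.05. Neither called gene belongs to an interferon list. Car1, the carbonic anhydrase of early erythroid cells, had 68 UMIs in 4 GTPase-leaning cells, 42 of them in 1 cell, and 0 in the Ifit-leaning cells. Its pooled level was 321 CPM against at most 31.4 CPM that 3 counts over the group allow, at least 10.2-fold higher (adjusted p = 0.00239). The histone gene Hist1h2ao stood at 1119 against 607 CPM (1.25 ± 0.28, adjusted p = 0.00685), and at 1252 CPM in the other cells. Against those it was lower in Ifit-leaning cells (-1.12 ± 0.23, adjusted p = 8.43e-04) and not called in GTPase-leaning cells (-0.20 ± 0.14, adjusted p = 0.856). With at least 3 cells of each kind, or with cells of 1 kind only, no gene was called, and without the library block 1 was.

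For interferon genes the direct comparison of the kinds made no call. Their median was 0.53 in the interferon-gamma list (8 of 11 tested genes above 0) and -0.25 in the ISGF3-type list (12 of 20 below 0), against 0.11 over all genes. Rtp4 had the pooled levels 161 CPM in GTPase-leaning and 440 CPM in Ifit-leaning cells (-1.17 ± 0.53, adjusted p = 0.807). Oasl2 had 85 and 272 CPM (-1.17 ± 0.70, adjusted p = 0.997), Irgm1 279 and 189 CPM (1.10 ± 0.55, adjusted p = 0.951) and Gbp7 307 and 199 CPM (0.87 ± 0.52, adjusted p = 0.997). A p above the threshold does not show that the kinds were alike, since the Ifit-leaning cells held 95480 UMIs in all.

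Each kind was also set against the same other cells, which both comparisons share. Ifit-leaning cells (11 libraries) had 33 higher genes of 8951 (0.369%), 10 of 58 in the ISGF3-type list and 3 of 17 in the interferon-gamma list, and 2 lower genes (0.0223%). GTPase-leaning cells (14 libraries) had 29 higher genes (0.324%) and 1 lower (0.0112%), 3 of 58 and 10 of 17 in these lists. List medians were 1.27 and 1.19 in Ifit-leaning cells, and 0.42 and 1.74 in GTPase-leaning cells. Irf7 was called in both kinds (2.74 ± 0.49 and 1.75 ± 0.46), as were Gm12250 (2.51 ± 0.48 and 2.57 ± 0.39) and Gm4951 (2.42 ± 0.51 and 2.94 ± 0.40). Serpina3f was called in both as well, at 2.39 ± 0.58 in Ifit-leaning and 3.59 ± 0.38 in GTPase-leaning cells. Serpina3g was called in GTPase-leaning cells (1.80 ± 0.21) and not in Ifit-leaning ones (1.02 ± 0.38, adjusted p = 0.317), and Oasl2 the other way round (0.77 ± 0.45, adjusted p = 0.634, and 2.0 ± 0.48). These are separate comparisons, and the difference between the kinds is the one tested above. The strongest cell, in library 1, was itself Ifit-leaning. It held 6 of the 8 Serpina3f UMIs, 8 of the 20 Irf7 UMIs and 9 of the 26 Oasl2 UMIs of the Ifit-leaning cells. The Ifit-leaning calls and medians given here include this cell, and values without it are not given here.

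**Figure D5:**
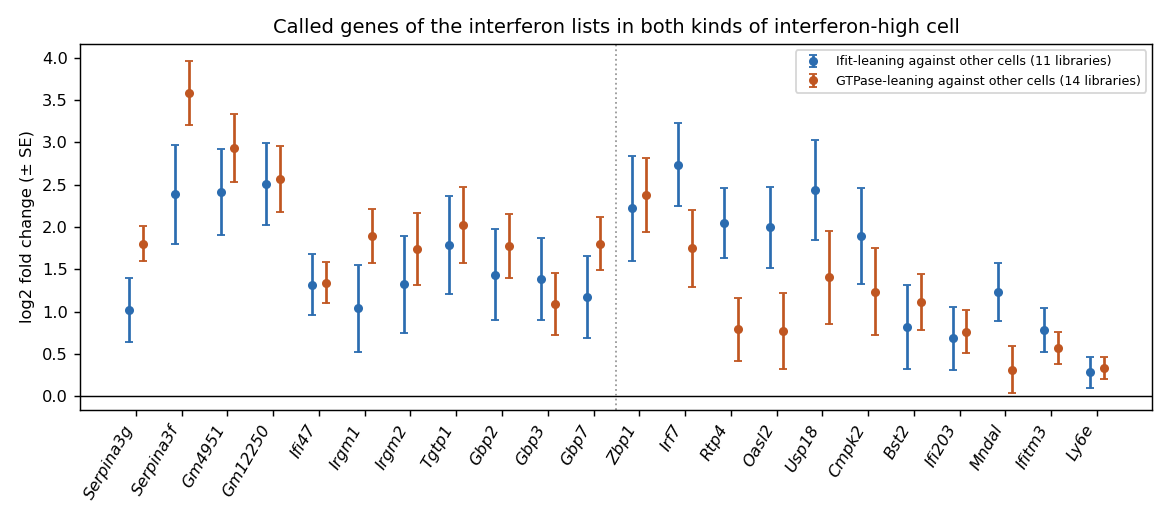
Log2 fold change ± SE (y axis) of 22 of the 23 called interferon-list genes (x axis) in Ifit-leaning (blue, 11 libraries) and GTPase-leaning cells (orange, 14 libraries), each against the other cells; the dotted line parts the interferon-gamma list on the left from the ISGF3-type list on the right. All values lie above 0, and Rtp4 and Oasl2 show the widest gaps on the right.

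Measures of cell quality were compared with and without depth matching. The mitochondrial share of interferon-high cells had a median over libraries of 10.1% (7.09% to 12.4%) and that of the other cells 10.4% (9.47% to 12.4%). The mean difference within libraries was -0.793 percentage points (SD 1.07, lower in 11 of 14 libraries, exact two-sided sign-flip permutation p = 0.00854), and against depth-matched cells it was -0.130 points (exact permutation p = 0.459). In the libraries rich in Stmn1 the difference was -0.545 points and in the others -1.04 points (exact permutation p = 0.0938 in each, where 7 libraries can reach 0.0156). In cells thinned to 500 UMIs, interferon-high cells showed 5.07 more genes than the others (SD 7.77, exact permutation p = 0.0339), but 0.0357 fewer than depth-matched cells (exact permutation p = 1.0).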

How the data were processed

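The authors deposited molecule (UMI) counts per gene and well for 16 plates of 384 wells, not normalized, made by MARS-seq per the labels' protocols, and a table of wells giving library, sequencing batch and number of cells. The submitters' processing notes name bcl2fastq (version 2.15.0.4) and the genome build mm10. The sources used here do not give the aligner, counting tool, annotation or strand setting. The gene name table holds the symbols of 48106 of the 52542 gene entries, to which 92 ERCC spike-ins come.

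Spike-ins were left out of all totals. No doublet caller was run, since the well table lists no well with over 1 cell; library 1 has no listing, and its wells were kept by UMIs and mitochondrial share alone. No well identifier was shared by libraries, and no deposited sample column was left unused. The members and the 30 gene lists were chosen with earlier results of these data known. Levels in UMIs per 1000000 UMIs (CPM) use all UMIs of the summed cells.

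UMIs were summed per library and class. Sums of 14 libraries (those with at least 3 interferon-high cells; libraries 2 and 16 dropped out) were compared with edgeR 4.0.16 in R 4.3.3, by the quasi-likelihood test with the library as a block, on genes with at least 100 UMIs, the 7 selecting genes left out, and adjusted by Benjamini-Hochberg at 0.05. The block pairs sums that come from the same plate. TMM factors were taken from the 602 genes with at least 2000 UMIs (109 genes with at least 10000 for the smallest sums and for the comparison of kinds). This departs from plain TMM over all tested genes, which on simulated counts called far more unchanged genes than the abundant genes did; on the real data plain TMM gave 16 higher and 1224 lower genes and shifted the median of all genes to -0.65. The tests were checked on simulated counts, drawn from pooled gene shares with the same negative binomial spread for every gene. Differences between libraries, and single cells that hold most UMIs of a gene, were not simulated. The simulated rates therefore do not give the rate of false calls in the real sums. With factors from abundant genes, true folds of 2 and 4 were called in 12 of 50 and 46 of 50 genes. True folds of 0.5 and 0.25 were called in 6 of 50 and 17 of 48 genes, and 3 of 8761 unchanged genes were called. Falls were thus missed more often than rises, and most changes of 2-fold were missed. Mitochondrial shares and genes per cell thinned to 500 UMIs were compared by the exact sign-flip permutation test over libraries. Depth-matched cells were the 5 other cells of the same library closest in UMIs to each interferon-high cell.

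Genes were named by rule: the 7 genes; the 15 called genes with the largest rise and up to 10 with the largest fall; called genes of the interferon lists; up to 4 genes of each other list; receptors, Ly6a, Kit, Zc3h12a, Zc3h12c and Nfkbiz; and up to 5 genes per direction between the kinds. Genes of the strongest cell, Stmn1, Gm14094, Gm8420 and called genes outside this rule (Stk11, Gm8995, Gm42418, Gm26917) were named after their values were seen. Alternatives were DESeq2 1.42.0, other factors, filters, thresholds, depth matching, thinning, batches and leaving out each library. Those on TMM factors, library totals, the strongest cell, each kind alone and the Stmn1 sets were chosen after seeing the data. Promoters came from RefSeq, build GRCm38.p6. Counting intervals are 95% Wilson intervals, and limits for 0 use 3 counts, for counting error only. Some results on genes of the lists are not reported here.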

Additional observations from a re-analysis of the deposited data

How the results depend on the processing

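The median share of interferon-high cells per library, 2.15%, became 3.51% with a threshold of 3 UMIs of the 7 genes and 0.658% with 6 UMIs, as a looser or stricter count must give. The 37 calls between interferon-high and other cells became 20 with the DESeq2 Wald test, 24 with filterByExpr, 88 with genes of at least 10 UMIs, 15 in cells thinned to 500 UMIs, 8 within batch SB341 and 13 within SB343. They became 14 in the libraries with Stmn1 over 700 CPM and 19 in those under 100 CPM, each with fewer libraries. With TMM factors over all tested genes they became 1240 (16 higher, 1224 lower). Leaving out single libraries gave 24 (without library 1) to 38 (without library 15) calls. Without the library as a replicate block there were 34 calls, and 11 of the 37, among them Mpo, Gm42418 and B2m, were lost. The pairing of sums comes from the shared plate. Of 37 genes, 15 were called whichever library was left out and 1, Serpina3f, under all alternatives run.

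Of 1320 recomputed fold changes of called genes, 938 kept their call, 372 kept only the direction and 10 turned. With TMM over all tested genes the turned values were -0.48 for Gm42418, -0.46 for B2m, -0.57 for Gm26917 and -0.33 for Ly6e. In thinned cells they were -2.99 for Ifi30 and -2.65 for Hba-a1, and at a threshold of 6 UMIs -4.87 for Ifi30 and -3.04 for Hba-a1. Gm26917 turned within SB343 (-0.0911) and in libraries under 100 CPM of Stmn1 (-0.0114). The cause of the other changes was not tested.

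The mitochondrial difference of -0.793 points missed the threshold at 3 UMIs (-0.228), at 6 UMIs (-1.18), with at least 300 UMIs per cell (-0.368), against depth-matched cells (-0.130), within SB343 (-1.37; its 5 libraries cannot give a p under 0.0625) and in either Stmn1 set (-0.545 and -1.04). The difference of 5.07 genes per thinned cell missed it at 3 UMIs (1.63), at 6 UMIs (6.64), with at least 1000 UMIs per cell (1.75), within SB341 (4.13) and SB343 (7.40, with the same limit of p), and over 700 CPM of Stmn1 (3.36). It turned against depth-matched cells (-0.0357), and ran from 4.12 to 6.31 when single libraries were left out, missing the threshold without any 1 of libraries 3, 4, 7, 10, 11, 13, 14 and 15 (exact permutation p = 0.0527 to 0.0679). Between the 2 kinds of interferon-high cell, 2 calls became 0 with at least 3 cells of each kind, 0 with cells of 1 kind only and 1 without the replicate block.

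Depth limits the gene comparisons: the smallest sum of interferon-high cells held 10333 UMIs, and 8951 genes reached the minimum of 100 UMIs. The labels give no genotype or mouse per library, and neither entered a fit.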
